A study of Mus musculus with 12 samples.

Results

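Small RNA libraries of the mouse frontal cortex (FCx) and hippocampus (HP) that carried index 3 were compared with libraries of the same tissues that carried index 7. The comparison covered 4 of the 6 libraries of the series, 1 of each index in each region, and asked which brain miRNAs changed in level and rank when the tag on the 5′ adaptor differed. A member was a miRNA whose mean over these 4 libraries reached 100 CPM, the counts of a miRNA scaled to a common total of miRNA counts in each library. This held for 144 of the 469 miRNAs listed in the count tables, and 419 of the 469 had enough counts to be tested. At the threshold, miR-124* with a mean of 102 CPM and miR-488 with 101 CPM were just inside, and miR-501-3p with 98.2 CPM and miR-433* with 96.8 CPM were just outside.

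All libraries came from C57BL/6J mice aged 8 weeks. Each region was represented by 1 pool of RNA from 3 mice, from which both its index 3 and its index 7 library were made. Small RNAs of 15 to 35 nt were taken into a modified Illumina protocol in which a tag of 6 nt closes the 5′ adaptor and so lies directly beside the ligated small RNA. The tag was UUAGGC for index 3 and CAGAUC for index 7. Each library was sequenced in a lane of its own and in a lane pooled with other libraries, and the counts of these 2 runs were summed here. Since each index was used once in each region, the tag and the preparation of the library cannot be told apart, and no replicate separates animals. The p-values below rest on these 4 libraries alone. They set the index difference against its disagreement between FCx and HP, with a spread that edgeR estimates in part across all miRNAs tested. They cover no variation between animals. Where FCx and HP are compared in such bulk tissue, fewer cells of a type and less RNA per cell also cannot be told apart.

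MicroRNAs are short RNAs that guide Argonaute proteins to messenger RNAs, mainly through the seed, bases 2 to 8 from the 5′ end. MiRNAs with the same seed form a family and are expected to bind largely the same targets. In library preparation, T4 RNA ligase joins an adaptor to the 5′ end of each small RNA, and the enzyme is known to prefer some pairs of ends over others. The count of a miRNA therefore depends on its level in the tissue and on how well it is ligated, and the second can differ between adaptors.

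The sequences of the miRNAs at the ends of the comparison are shown first, as RefSeq (GRCm38.p6) gives them, with the seed in capitals. MiR-137, miR-384-5p, miR-365 and miR-335-5p were among the most strongly raised with index 3, and miR-33, miR-222 and miR-338-3p among the most strongly raised with index 7.
miR-137: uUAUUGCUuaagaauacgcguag
miR-384-5p: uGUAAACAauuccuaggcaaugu
miR-365: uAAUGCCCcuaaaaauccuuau
miR-335-5p: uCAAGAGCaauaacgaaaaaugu
miR-33: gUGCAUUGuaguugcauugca
miR-222: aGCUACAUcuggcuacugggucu
miR-338-3p: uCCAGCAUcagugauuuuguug

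Family members with the same seed that parted between the indexes are shown next, since the letters outside the seed are all that separates them. The pairs are miR-29a and miR-29c, miR-200b and miR-429, miR-7a and miR-7b, miR-99a and miR-100, and miR-30a and miR-30c.
miR-29a: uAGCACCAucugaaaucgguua
miR-29c: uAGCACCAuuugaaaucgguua
miR-200b: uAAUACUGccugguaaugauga
miR-429: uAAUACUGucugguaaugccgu
miR-7a: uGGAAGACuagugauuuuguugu
miR-7b: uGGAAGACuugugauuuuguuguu
miR-99a: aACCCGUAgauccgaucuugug
miR-100: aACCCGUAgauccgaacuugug
miR-30a: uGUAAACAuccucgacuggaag
miR-30c: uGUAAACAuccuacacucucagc

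The summed libraries held 391410 miRNA counts for FCx index 3, 1461732 for FCx index 7, 3206221 for HP index 3 and 4956117 for HP index 7. The 144 members took 99.5% to 99.6% of these counts. A count of 0 allows up to 7.66 CPM in FCx index 3 but 0.605 CPM in HP index 7 (3 counts, counting error only). Let-7b* and let-7a*/let-7c-2* were treated as suspect and are described apart, because their index 3 counts came mostly from the pooled lanes.

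Of the 144 members, 79 (54.9%) passed the threshold of 0.05 on the adjusted p of edgeR's quasi-likelihood test with region as a block and Benjamini-Hochberg adjustment over all 419 miRNAs. Among all miRNAs tested, 43.7% passed. Higher levels with index 3 were found for 43 members, where 22.9% of all tested passed in that direction, and higher levels with index 7 for 36, where 20.8% did. The other 65 members did not pass. The 43 include the suspect let-7b*, and a fit without the suspect miRNAs called 80 members, 52.5% of them higher with index 3. The direction of the CPM ratio was the same in FCx and HP for 114 members and opposite for 30, and 27 members differed by at least 4-fold in the same direction in both regions, 20 of them with index 3 higher, let-7b* included (17.4% of all tested did so in either direction). At most 1.5-fold in either region was seen for 20 members. With the size factors of DESeq2 in place of the TMM factors of edgeR, the split of the called members was 36 higher with index 3 and 47 higher with index 7, so which side held more calls depended on the scaling. The scaling moved the median log2 fold change over all tested miRNAs, 0.09 with TMM, by 0.12 with library totals and by -0.18 with the size factors.

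The choice of members by their mean over both indexes matters for this count. Through the index 3 mean alone 15 members entered, of which 15 were called, and through the index 7 mean alone 12 entered, of which 11 were called. Of the 117 members that reached 100 CPM with each index, 53 (45.3%) were called. When miRNAs were chosen instead by their mean in the 2 index 11 libraries, which the test did not use, 119 were chosen and 61 of them (51.3%) were called, 40 higher with index 3 and 21 higher with index 7.

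The members differed more between the indexes than between the 2 sequencing runs of the same library. The runs share 1 preparation and the indexes do not, so this excess cannot be assigned to the tag or to the preparation. The median absolute log2 ratio between the indexes was 1.05 in FCx and 0.92 in HP, whereas between the 2 runs of a library it was 0.15 to 0.48, the highest value being that of HP index 3. Members shifted by a median of 20 ranks between the indexes in each region and by 3 to 4.5 ranks between runs. The index ratio was larger than each of the 4 run ratios of the same miRNA in both regions for 69 members, 61 of which were called.

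**Figure D1:**
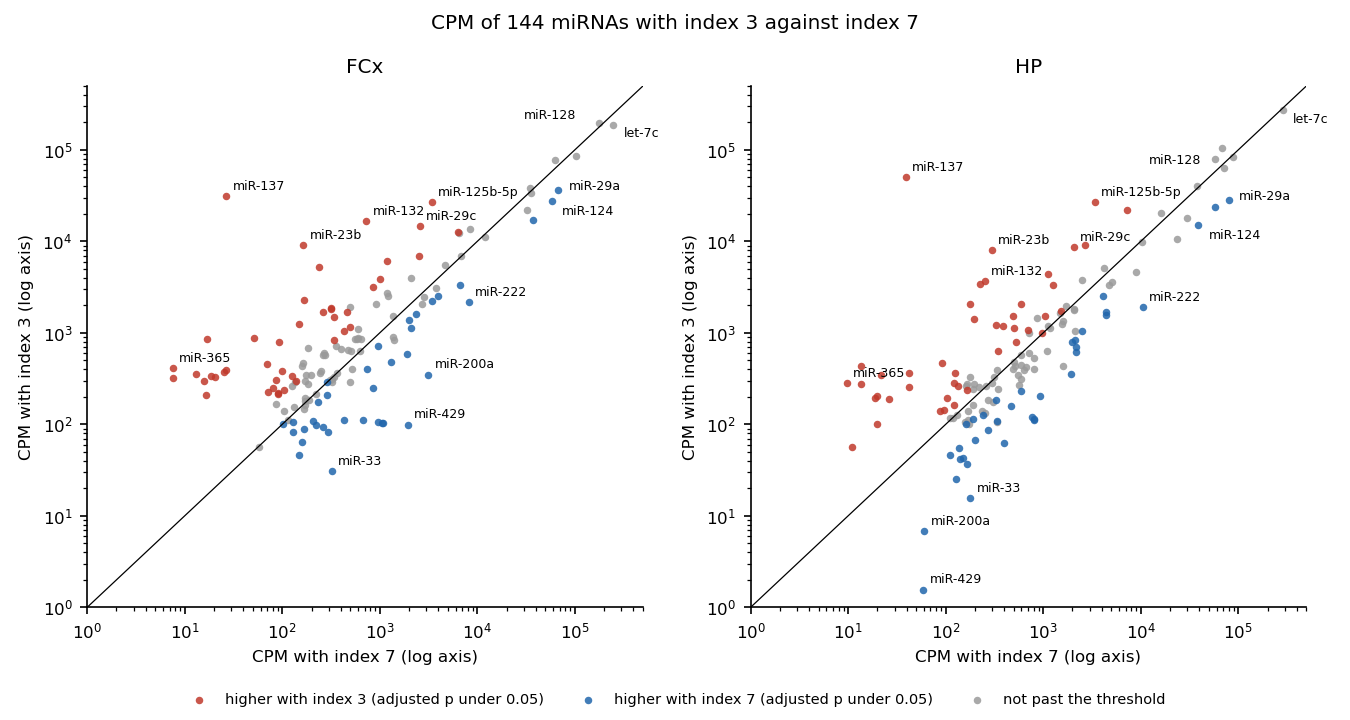
CPM of the 144 members with index 3 (vertical, log axis) against index 7 (horizontal, log axis) in FCx (left) and HP (right), 1 point per miRNA, with the line of equal values. Points above the line were higher with index 3; miR-137 stood at 31458 against 26.7 CPM in FCx, and let-7c and miR-128 lay near the line.

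The largest difference was that of miR-137, a miRNA enriched in neurons and known for its role in neuronal maturation. It lies at chr3:118136819-118136841 (NCBIM37, plus strand), where no other annotated gene was found on the same strand. Its levels in FCx and HP were 31458 and 50059.6 CPM with index 3, and 26.7 and 39.3 CPM with index 7. Both index 3 libraries were thus high and both index 7 libraries low, with no overlap, and the rank of miR-137 fell from 8 to 182 in FCx and from 6 to 166 in HP. MiR-137 became a member through index 3 alone, so the choice of members partly fixed this difference. Its log2 fold change was 10.08 ± 0.55 (SE), with an adjusted p of 5.5e-53 by edgeR. The next members on this side included both miRNAs of the miR-23 family, widely expressed miRNAs of the clusters that also hold miR-24 and miR-27. MiR-23b had 9192 and 7993 CPM with index 3 and 165 and 297 CPM with index 7 in FCx and HP, a log2 fold change of 5.08 ± 0.43 (edgeR adjusted p 4.44e-26). MiR-23a had 5222 and 3392 CPM with index 3 and 236 and 226 CPM with index 7 (3.99 ± 0.40, edgeR adjusted p 2.14e-19). In each case the lower index 3 value was more than 10 times the higher index 7 value.

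MiR-132, which neuronal activity induces, showed the index and the region at once. Its levels in FCx and HP were 16806 and 3712 CPM with index 3, and 731 and 252 CPM with index 7. Every index 3 library was above every index 7 library, and FCx was above HP with each index. The log2 fold change between the indexes was 4.004 ± 0.41 (edgeR adjusted p 3.29e-19), and its rank went from 13 to 50 in FCx and from 24 to 92 in HP. The partner of miR-132 in the same transcript, miR-212, shares its seed and had 432 and 117 CPM with index 3 and 158 and 112 CPM with index 7. Its log2 fold change of 0.55 ± 0.32 did not pass (edgeR adjusted p 0.15).

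Several miRNAs of moderate level with index 3 were low with index 7. Those named here, except miR-9*, became members through index 3 alone, so the choice of members partly fixed this difference. MiR-384-5p had 322 and 434 CPM in FCx and HP with index 3 and 7.53 and 13.5 CPM with index 7 (log2 fold change 5.03 ± 0.39, edgeR adjusted p 1.55e-30). It has the seed of the miR-30 family, GUAAACA. MiR-365 had 409 and 283 CPM against 7.53 and 9.69 CPM (5.08 ± 0.38, edgeR adjusted p 3.04e-32). MiR-335-5p, encoded in an intron of the imprinted gene Mest, had 376 and 346 CPM against 25.3 and 21.6 CPM (3.78 ± 0.35, edgeR adjusted p 3.66e-22). MiR-380-3p and miR-376b of the imprinted cluster on chromosome 12, miR-324-5p, miR-652 and miR-9* completed the 12 members with the largest ratios on this side, with log2 fold changes between 3.47 and 4.02.

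On the index 7 side 7 members reached 4-fold in both regions. Among them are miR-1 and miR-1-2-as, whose reads cannot be told apart and which are counted separately here and in the totals above. The largest difference there was that of miR-429, which belongs with miR-200a and miR-200b to a group of 3 miRNAs known from epithelia and olfactory neurons and encoded close together on chromosome 4 (minus strand) in the gene Ttll10. MiR-429, at chr4:155428025-155428046, was at 99.6 and 1.56 CPM in FCx and HP with index 3, and at 1936 and 58.9 CPM with index 7. The HP index 3 value rested on 5 counts (exact 95% interval 0.506 to 3.64 CPM). Within each region index 7 was higher, but the ranges over both regions overlapped, since FCx index 3 was above HP index 7. The log2 fold change was -4.89 ± 0.45 (edgeR adjusted p 1.39e-22). MiR-429 became a member through index 7 alone, so the choice of members partly fixed this difference. MiR-200a, at chr4:155429020-155429041, had 350.0 and 6.86 CPM with index 3 and 3142 and 60.5 CPM with index 7, again higher with index 7 within each region (-3.38 ± 0.41, edgeR adjusted p 2.18e-14). MiR-200b, at chr4:155429794-155429815, went the other way: it had 1847 and 56.5 CPM with index 3 and 315 and 11.1 CPM with index 7 (2.24 ± 0.37, edgeR adjusted p 2.35e-08).

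MiR-33, which lies in an intron of the sterol regulator gene Srebf2 and is known to act on cholesterol export, had 30.7 and 15.6 CPM with index 3 and 322 and 179 CPM with index 7 in FCx and HP. Both index 7 libraries were above both index 3 libraries (log2 fold change -3.60 ± 0.36, edgeR adjusted p 2.85e-20). The FCx index 3 value rested on 12 counts (exact 95% interval 15.8 to 53.6 CPM). MiR-33 became a member through index 7 alone, so the choice of members partly fixed this difference. MiR-338-3p, an oligodendrocyte miRNA encoded in an intron of Aatk, had 112 and 121 CPM against 677 and 769 CPM, with no overlap (-2.81 ± 0.37, edgeR adjusted p 3.95e-12). MiR-222, known for its action on the cell cycle inhibitor p27, was the most abundant of this side's leading members. It had 2156 and 1907 CPM with index 3 and 8214 and 10466 CPM with index 7 (-2.39 ± 0.38, edgeR adjusted p 7.55e-09), and its rank rose from 36 to 13 in FCx and from 33 to 13 in HP. Its cluster partner miR-221 has the same seed and differed less, with 2246 and 2502 CPM against 3432 and 4128 CPM (-0.86 ± 0.36, edgeR adjusted p 0.0424).

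MiR-1, a miRNA of heart and skeletal muscle, was listed at 105 and 112 CPM with index 3 and 1066 and 808 CPM with index 7 (-3.26 ± 0.39, edgeR adjusted p 1.77e-14). MiR-1-2-as was listed with nearly the same values, 105, 113, 1071 and 812 CPM, and reads of these overlapping hairpins cannot be told apart in the counts. The other muscle markers gave no comparable level, as miR-133a lay between 0 and 1.21 CPM, miR-133b between 0 and 0.312 CPM and miR-206 between 7.06 and 17.9 CPM. MiR-674, miR-760, miR-378, miR-24 and miR-369-3p were the other leading members of this side, with log2 fold changes from -3.08 to -1.92. Of these, miR-674 and miR-760 became members through index 7 alone, so the choice of members partly fixed their differences.

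Both lists include abundant miRNAs, so the ranking of the brain's leading miRNAs differed between the indexes. Of the 10 most abundant miRNAs, 8 were shared between the indexes in each region. Of the first 20, 15 were common to the indexes in FCx and 14 in HP, and of the first 50, 38 and 39 were. Over the members, 79 moved by at least 10 ranks in the same direction in both regions, 28 by at least 50 ranks and 8 by at least 100 ranks. The members called higher with index 3 took 16.1% and 16.2% of the counts in the index 3 libraries of FCx and HP but 2.36% and 2.77% in the index 7 libraries. Those called higher with index 7 took 10.1% and 8.13% with index 3 and 20.9% and 22.1% with index 7. These shares describe the calls and do not test them.

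The let-7 miRNAs, known for promoting differentiation, and miR-128 took the first 3 places with both indexes in FCx. Let-7c had 187892 and 271387 CPM in FCx and HP with index 3 and 247188 and 284835 CPM with index 7, with a log2 fold change of -0.43 ± 0.39 that did not pass (edgeR adjusted p 0.418). MiR-128, a neuronal miRNA, had 196009 and 63974 CPM with index 3 and 177013 and 70734 CPM with index 7, so that the regions differed and the indexes hardly did (-0.20 ± 0.38, edgeR adjusted p 0.731). Let-7a, let-7b, let-7d, let-7e and let-7f did not pass either. By contrast miR-125b-5p, a neuronal and glial miRNA, had 27061 and 26712 CPM with index 3 and 3404 and 3405 CPM with index 7, a log2 fold change of 2.78 ± 0.39 (edgeR adjusted p 6.06e-11). It ranked 10 and 9 with index 3, and 22 and 23 with index 7.

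Among the abundant brain miRNAs, 3 were higher with index 7. MiR-124, the most neuron-specific of them, had 27912 and 15169.9 CPM with index 3 and 57775 and 39174 CPM with index 7 in FCx and HP (-1.41 ± 0.38, edgeR adjusted p 0.000828). MiR-9, which neural progenitors and neurons express, had 17202 and 23927 CPM against 36936 and 57807 CPM (-1.38 ± 0.38, edgeR adjusted p 0.000991). MiR-29a, abundant in astrocytes and neurons of the adult brain, had 36236 and 28105 CPM against 68039 and 80079.6 CPM (-1.41 ± 0.38, edgeR adjusted p 0.000871). In all 3 both index 7 libraries were above both index 3 libraries. Each of the 3 calls was lost when the runs of the individual lanes alone were tested and when FCx index 3 was left out. The steadiest members, besides let-7e and miR-128, were miR-21, miR-29b, miR-7b and miR-1198, whose CPM ratio was at most 1.13 in either direction. MiR-21, for example, had 628 and 1191 CPM with index 3 and 627 and 1127 CPM with index 7.

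**Figure D2:**
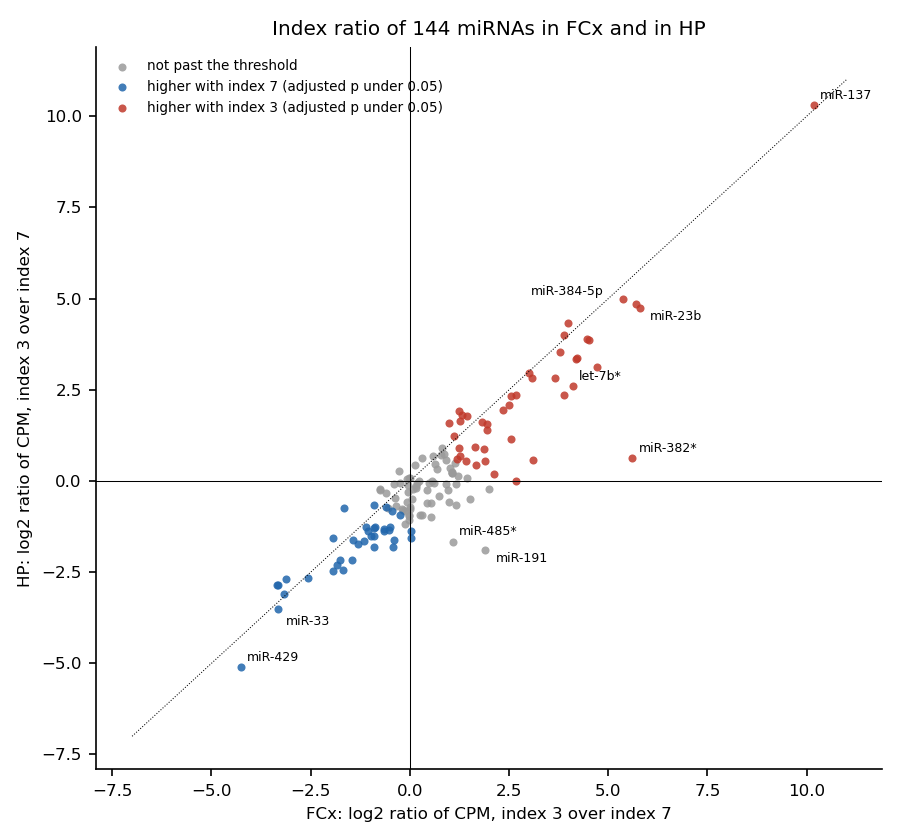
Log2 ratio of CPM, index 3 over index 7, in HP (vertical) against FCx (horizontal) for the 144 members, 1 point per miRNA, coloured by the call. Most points lay near the dotted line of equal ratios (Pearson r = 0.918 across miRNAs); miR-191, miR-485* and miR-382* lay below it.

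The ratios measured in FCx and in HP ran in parallel across miRNAs. Pearson's r of the log2 ratios was 0.918 and Spearman's rho 0.865 over the 144 members, which are not independent replicates and share the same 4 libraries. The median ratio of the members was 0.46 in FCx and -0.09 in HP on the log2 scale of CPM, and the normalization of edgeR moved the ratios by -0.51 in FCx and 0.11 in HP. MiR-323-3p and miR-668 were called lower with index 3 after this normalization, while their plain CPM ratios in FCx alone were 0.037 and 0.017 on the log2 scale.

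Next, the members were grouped by family. Of the 32 families listed, 20 had at least 2 members here, 54 miRNAs in all. In 11 of the 20 the summed CPM of the family differed by less than 2-fold between the indexes in both regions. In 5 of them the members spanned at least 4-fold in both regions, and in 3 of them, the miR-29, miR-30 and miR-200 families, members were called in both directions. The median span between the lowest and the highest log2 fold change within a family was 1.41. As sets chosen in view of earlier results of these data, the families are described and were not tested as sets.

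The miR-200 family, here miR-200b and miR-429 (miR-200c was below the level asked for), showed the widest span. MiR-200b made up most of the family with index 3 and miR-429 most of it with index 7. The sum including miR-200c was 2100.1 and 58.9 CPM in FCx and HP with index 3, and 2308 and 70.6 CPM with index 7. The log2 ratios of these sums were -0.14 and -0.26, while the log2 fold changes of the single miRNAs were 2.24 and -4.89. MiR-200a has a different seed and is counted in another family.

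In the miR-29 family, which acts on collagens and DNA methyltransferases, miR-29a and miR-29c differ by 1 base, C10U (base of miR-29a, position from 1 at the 5′ end, base of miR-29c). MiR-29c, on chromosome 1 in an exon of the long RNA A330023F24Rik, had 14698 and 8656 CPM with index 3 and 2591 and 2051 CPM with index 7 in FCx and HP. Both index 3 libraries were higher, opposite to miR-29a, and its log2 fold change was 2.09 ± 0.38 (edgeR adjusted p 3.24e-07). The log2 fold changes of this pair lay 3.50 apart. MiR-29b, the third of the family, had 329.6 and 281 CPM with index 3 and 343 and 300.6 CPM with index 7, and did not pass.

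Other pairs with 1 substitution mostly stayed together. Of 12 such pairs of members, 9 had log2 fold changes less than 1 apart, with a median gap of 0.47 over the 12. Let-7b and let-7c (G17A) were 0.08 apart, miR-181b and miR-181d (C12U) 0.16, miR-30a and miR-30e (C13U) 0.29, and miR-103 and miR-107 (G22C) 0.30. The pairs that parted by at least 1 were miR-29a and miR-29c, miR-100 and miR-99a (A16U), with a gap of 1.72, and miR-7a and miR-7b (A10U), with a gap of 1.67. MiR-7a had 307 and 1181 CPM with index 3 against 86.9 and 388 CPM with index 7 (1.52 ± 0.36, edgeR adjusted p 0.000125), whereas miR-7b had 112 and 332 CPM against 115 and 317 CPM. MiR-100 had 253 and 260.4 CPM against 80.7 and 136 CPM (1.09 ± 0.32, edgeR adjusted p 0.00172), and miR-99a 2067 and 3368 CPM against 2697 and 4684 CPM (-0.63 ± 0.36, edgeR adjusted p 0.16). The difference within a pair was not tested. Up to 2 mismatches were allowed in the alignment, so reads of such close pairs may not be fully separated in the counts.

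In the miR-30 family, which is broadly expressed and known from differentiation, miR-30c had 1254 and 1411 CPM with index 3 and 147 and 198 CPM with index 7 (2.77 ± 0.38, edgeR adjusted p 1.32e-11). MiR-30d went the other way, with 3334 and 1562 CPM against 6591 and 4465 CPM (-1.45 ± 0.37, edgeR adjusted p 0.000389). MiR-30a and miR-30e did not pass (-0.42 and -0.71). The sum of the family had log2 ratios of -0.22 in FCx and -0.55 in HP. In the let-7 family let-7g, let-7i and miR-98 were called higher with index 3, with log2 fold changes of 1.10, 1.43 and 1.37, and the other 6 were not called. The let-7 sum had log2 ratios of -0.17 in FCx and 0.13 in HP.

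Some family sums differed by over 2-fold in both regions. The summed log2 ratio was 5.17 in FCx and 4.44 in HP for the miR-23 family, 4.28 and 3.40 for the family of miR-132 and miR-212, 2.49 and 2.36 for the miR-125 family, and -1.40 and -1.73 for the family of miR-221 and miR-222. Both members were called in the miR-23 family and in that of miR-221 and miR-222, whereas miR-212 and miR-125a-5p did not pass. In order of summed level the miR-23 family went from 7 to 19 in FCx and from 6 to 19 in HP, and the miR-125 family from 3 to 7 in both. The let-7 and miR-29 families kept ranks 1 and 2 in all 4 libraries. For 14 of the 40 sums, 1 for each family and region, leaving out the most abundant miRNA of the family moved the log2 ratio by at least 1.

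**Figure D3:**
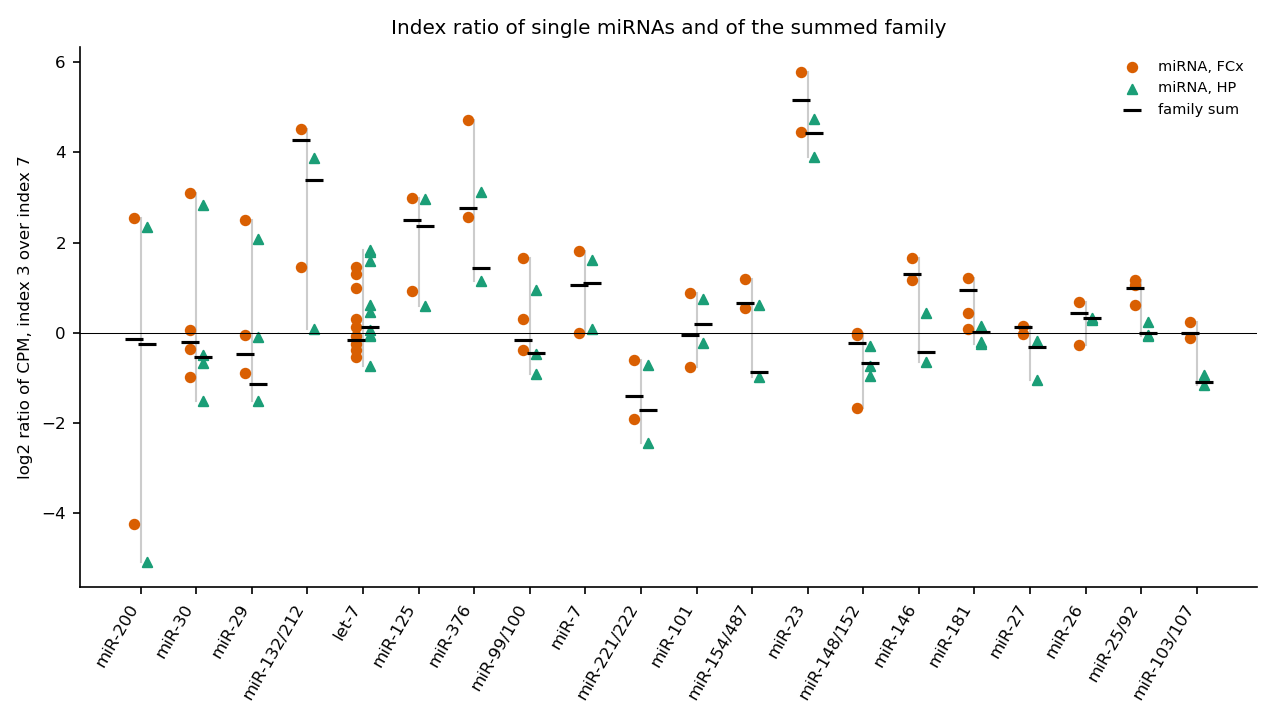
Log2 ratio of CPM, index 3 over index 7 (vertical), of each member (circles FCx, triangles HP) and of the family sum (bars) for the 20 families with at least 2 members. The miR-200 sum lay near 0, at -0.14 in FCx and -0.26 in HP, between widely separated miRNAs, while both miR-23 miRNAs lay above 3.

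The imprinted Dlk1-Dio3 region on chromosome 12 encodes many brain miRNAs on its maternal allele. In its miR-379/410 cluster 35 of 38 listed miRNAs were tested, of which 11 were called higher with index 3 and 6 higher with index 7, with a median log2 fold change of 0.51 (0.09 over all tested, of which 22.9% were called higher with index 3 and 20.8% with index 7). Among the 18 members of the cluster these counts were 6 and 4. MiR-380-3p had 329.6 and 275 CPM with index 3 and 20.5 and 13.5 CPM with index 7, without overlap, whereas miR-369-3p had 112 and 159 CPM against 432 and 471 CPM. In the neighbouring cluster antisense to Rtl1, 2 of 11 tested miRNAs were called higher with index 3 and 6 higher with index 7, with a median of -1.22. Its members miR-434-3p, with 6119 and 4354 CPM against 1202 and 1131 CPM, and miR-433, with 2527 and 1709 CPM against 3985 and 4457 CPM, stood on opposite sides. MiRNAs of 1 cluster are cut from shared transcripts, and both clusters held miRNAs of both directions.

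The markers of cell types split in the same way. All 7 neuronal markers were members, of which miR-137 and miR-132 were called higher with index 3, miR-124, miR-9 and miR-138 higher with index 7, and miR-128 and miR-218 neither. Their summed level was 290493 and 158455 CPM with index 3 and 273692 and 170881 CPM with index 7 in FCx and HP. Of the oligodendrocyte markers, miR-219 had 1484 and 1754 CPM with index 3 and 340.0 and 1539 CPM with index 7 (0.95 ± 0.37, edgeR adjusted p 0.0237), and miR-338-3p was higher with index 7. Of the 7 markers of blood and microglia, miR-142-5p and miR-146a were called higher with index 3 and miR-451 higher with index 7, and their sum lay between 223 and 284 CPM in the 4 libraries. The choroid plexus miRNA miR-204, below the level asked of members, had 33.2 and 91.4 CPM against 2.05 and 5.65 CPM (3.997 ± 0.40, edgeR adjusted p 9.37e-20). Its FCx index 7 value rested on 3 counts. The summed choroid plexus and ependyma markers had log2 ratios of 0.54 and -0.14. The endothelial miR-126-3p and miR-126-5p did not pass, and the liver miRNA miR-122, between 4.68 and 24.0 CPM, was called higher with index 7 (-1.62 ± 0.45, edgeR adjusted p 0.00121), with CPM log2 ratios of 0.97 in FCx and -2.32 in HP. The index 3 and the index 7 library of a region were made from the same RNA pool.

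The arms of 1 hairpin are made in equal number, and the ratio of their levels is often used to name the guide strand and the star strand. Both arms were members for 14 hairpins. The more abundant arm differed between the indexes in both regions for miR-151, miR-30e and miR-485, and in FCx alone for miR-139. MiR-151-5p over miR-151-3p was 2.70 and 2.79 with index 3 and 0.669 and 0.753 with index 7 in FCx and HP. MiR-30e over miR-30e* was 0.506 and 0.434 with index 3 and 5.55 and 1.04 with index 7, and miR-485 over miR-485* changed in opposite directions in the regions. The ratio changed by at least 4-fold in the same direction in both regions for 4 hairpins, of which let-7b is suspect. MiR-9 over miR-9* went from 7.52 and 11.6 with index 3 to 221.7 and 326 with index 7. MiR-434-5p over miR-434-3p, both of 1 hairpin of the Rtl1 antisense cluster, went from 0.0482 and 0.0401 to 0.267 and 0.273. MiR-139-5p over miR-139-3p went from 0.415 and 1.05 to 6.39 and 7.99.

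The ratio of the regions compares libraries that carry the same tag. The sign of the FCx to HP ratio was the same with both indexes for 85 of the 144 members and opposite for 59. These are plain CPM ratios, with a median log2 value over the members of 0.26 with index 3 and -0.21 with index 7. The normalization of edgeR moved the index ratios by unequal amounts in FCx and HP, so small ratios can change sign. Of the 13 members with at least a 2-fold ratio with each index, 12 had the same sign, the exception being miR-485*. MiR-429 had log2 ratios of FCx over HP of 5.88 with index 3 and 5.04 with index 7, and miR-200a of 5.65 and 5.70. MiR-132 had 2.18 and 1.54, miR-128 1.62 and 1.32, and miR-7a -1.94 and -2.16. These miRNAs, apart from miR-128, differed in CPM between the indexes but kept the same side of the region comparison. Across the members Pearson's r of the region ratios was 0.744 and Spearman's rho 0.502, and the 3 miRNAs of chromosome 4 lie far from the rest.

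For 7 members the log2 region ratios of the indexes differed by at least 2, and for all 7 the FCx level was relatively low with index 7. They were chosen after their values were seen. MiR-382* had 848 and 1080.1 CPM in FCx and HP with index 3, 17.1 CPM in FCx with index 7 and 699.9 CPM in HP with index 7, so that 1 library of the 4 stood apart. MiR-191, a widely expressed miRNA, had 687 and 436 CPM with index 3, 183 CPM in FCx with index 7 and 1611 CPM in HP with index 7, so that its index ratio was opposite in the regions. In the index 11 libraries miR-191 had 475 and 438 CPM and miR-382* 257 and 330 CPM. The other 5 were miR-30a*, miR-30e*, miR-485*, miR-598 and miR-129-3p. A test of the difference of the ratios is not possible with 1 library in each cell of this design.

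**Figure D4:**
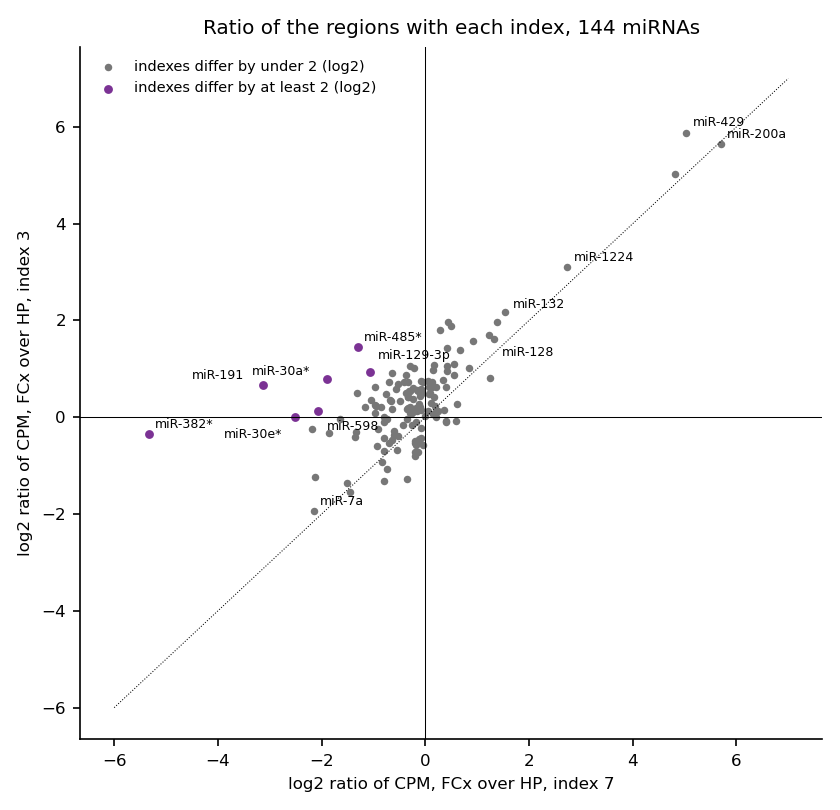
Log2 ratio of CPM, FCx over HP, with index 3 (vertical) against index 7 (horizontal) for the 144 members, 1 point per miRNA, with the dotted line of equal ratios. MiR-429 and miR-200a lay far out on both axes, and the 7 coloured miRNAs, miR-382* and miR-191 among them, differed by at least 2.

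The adaptor joins the first base of the small RNA, so the 5′ ends of the alignments were compared where a member had a single locus in NCBIM37. This held for 102 members, and for 87 of them the index ratio computed from alignments lay within 0.25 (log2) of that from the count tables in both regions. At least 50 alignments in each library were found for 76 members, and the median share of alignments that began at the annotated start was 97.5%. For miR-137, 85.8% and 86.7% began there with index 3 and 85.2% and 81.7% with index 7, the latter of 27 and 109 alignments. For miR-132, 94.4% and 95.01% began there with index 3 and 87.7% and 88.5% with index 7. The share of the annotated start changed by at least 10 points in the same direction in both regions for 6 members, and the commonest start differed between the indexes in both regions for 5. The miRNAs described next, chosen after these shares were seen, are 4 of the latter 5 (all but miR-330*) and miR-101b of the former 6.

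MiR-434-5p, a miRNA of the Rtl1 antisense cluster at chr12:110832738-110832759 (plus strand), occurs as the annotated form and as a form that begins 1 base earlier, which shifts the seed. The forms are shown because the tag is ligated to the base in which they differ.
miR-434-5p, 1 base before: aGCUCGACucaugguuugaacca
miR-434-5p, annotated: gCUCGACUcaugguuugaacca
The longer form, beginning with A, took 93.8% and 86.6% of the alignments in FCx and HP with index 3 and 38.0% and 28.7% with index 7. The annotated form, beginning with G, took 6.19% and 13.4% with index 3 and 61.8% and 71.2% with index 7. The form that was most common thus differed between the indexes in both regions, while the count of the miRNA as a whole did not pass (-0.67 ± 0.33, edgeR adjusted p 0.0867). These shares rest on 113 to 1436 alignments in a library.

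MiR-136*, from the same region of chromosome 12, showed the same for other letters.
miR-136*, annotated: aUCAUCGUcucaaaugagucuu
miR-136*, 1 base after: uCAUCGUCucaaaugagucuu
The annotated form beginning with A took 65.5% and 53.6% with index 3 and 27.4% and 27.8% with index 7, and the form beginning with U 26.1% and 34.0% with index 3 and 62.8% and 62.8% with index 7. For miR-323-3p the form that began with G, 1 base before the annotated start, took 45.3% and 46.5% with index 3 and 61.8% and 62.4% with index 7. For miR-101b the annotated form beginning with G took 6.16% and 10.4% with index 3 and 23.5% and 25.5% with index 7, and the form that began 1 base later with U took the most in all 4 libraries. For miR-770-3p the form 1 base after the annotated start, which begins with G, took 13.1% and 12.8% with index 3 and 38.3% and 38.4% with index 7.

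**Figure D5:**
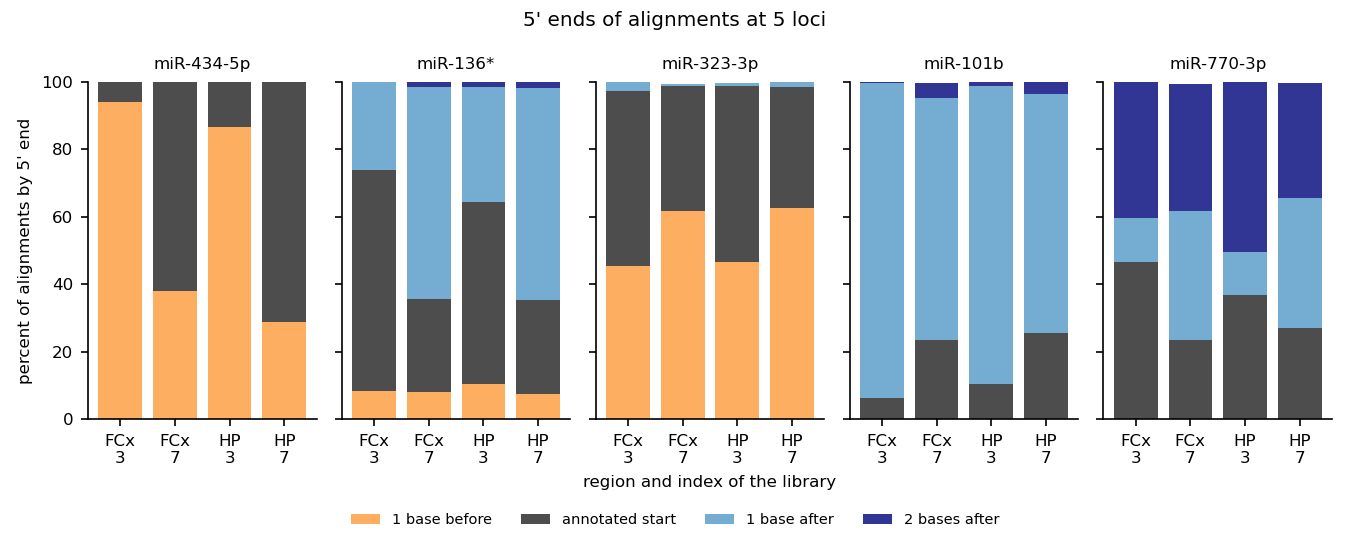
Percent of alignments (vertical, from 0 to 100) by 5′ end in each of the 4 libraries for 5 miRNAs, with colours for the base at which the alignment began relative to the annotated start (other positions are not drawn). For miR-434-5p the form 1 base before took 93.8% and 86.6% with index 3 and 38.0% and 28.7% with index 7.

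Over all 54 start forms of 30 miRNAs, the share was larger with index 3 in both regions for 25 forms and larger with index 7 in both regions for 26. By first base, these numbers were 6 and 8 of 17 forms for A, 7 and 2 of 9 for C, 4 and 9 of 13 for G, and 8 and 7 of 15 for U. The forms of 1 miRNA share their total, so they are not independent.

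Properties of the whole miRNA were compared for the 124 members whose sequence RefSeq gave. The 37 members called higher with index 3 had a median GC content of 42.9%, the 29 called higher with index 7 52.4%, and the 58 not called 47.7%. Their first base was U in 62.2%, 37.9% and 60.3% and G in 0, 3 and 4 members. The tag joined to the miRNA was folded at 20 °C, and its energy beyond that of the miRNA alone was compared between the tags. The median difference, index 3 minus index 7, was -2.19 kcal/mol for members called higher with index 3, -0.95 kcal/mol for those called higher with index 7 and -0.255 kcal/mol for those not called. Across the 124 miRNAs Spearman's rho of the log2 ratio was -0.25 with GC content, -0.26 with this difference and 0.12 with length. These values describe the 4 libraries, and their part in the differences was not tested.

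Let-7b*, the star strand of let-7b, had 889 and 256 CPM with index 3 and 51.3 and 42.2 CPM with index 7 and would be called higher with index 3 (3.14 ± 0.36, edgeR adjusted p 5.03e-16). Its index 3 values were 36.5 and 33.9 CPM in the individual lanes and 2874 and 644 CPM in the pooled lanes of FCx and HP. Of its 1453 counts in the 8 runs 1090 were from the pooled index 3 runs, but only 5 alignments in all 8 runs, 2 of them in those runs, lay at the let-7b* locus. From the individual lanes alone its log2 fold change was -0.55. Let-7a*/let-7c-2*, which was below the level asked of members, had 278 of its 332 counts in the pooled index 3 runs, and 5 and 8 alignments at the loci of let-7a* and let-7c-2*. The values of both are not read as a difference between the indexes, although let-7b* is 1 of the members counted above as called.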

How the data were processed

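Small RNA of 2 brain regions was counted in 4 libraries. Read counts per miRNA, 1 table for each run, were used as deposited by the authors, who trimmed reads, kept those of at least 14 nt and aligned them with Bowtie with up to 2 mismatches. Alignment files, deposited by the authors as positions in the NCBIM37 build, gave the 5′ ends. The 2 runs of a library were summed, and CPM were computed from the total miRNA counts of a library. Ranks and arm ratios compare the counts of miRNAs, which also depend on ligation. MiRNAs with at least 2 counts in a region were tested with edgeR 4.0.16 (TMM, quasi-likelihood, region as a block, Benjamini-Hochberg, threshold 0.05) in R 4.3.3, after a check on simulated counts. DESeq2 1.42.0 was an alternative. Log2 CPM ratios had 0.5 counts added. An exact permutation test with 2 libraries a side and this block cannot go below p = 0.5, so none is given. Folding used ViennaRNA 2.7.2. RefSeq sequences (124 members) were matched to NCBIM37 for coordinates. Named miRNAs were the 12 called members in each direction with the largest smaller ratio of the 2 regions, the 12 most abundant, the 6 steadiest, members of described lists and the suspect miRNAs. Members and lists were chosen with earlier results of these data known.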

Additional observations from a re-analysis of the deposited data

Results flagged for a closer look

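For 9 members the CPM ratio of the indexes pointed one way in FCx and the opposite way in HP in every combination of the runs. Index 3 was higher in FCx and lower in HP for 8 of them. The log2 index ratio of FCx minus that of HP was 3.79 for miR-191, 2.75 for miR-485*, 2.01 for miR-129-3p, 1.83 for miR-146b, 1.53 for miR-487b, 1.18 for miR-107, 1.14 for miR-543 and 0.53 for miR-30a. It was -0.57 for miR-26b, which was lower with index 3 in FCx and higher in HP. In the alignments at its locus, however, the log2 ratio of miR-26b was 0.35 in FCx and 0.83 in HP, the same direction. The alignments of miR-191, miR-485*, miR-146b, miR-107, miR-543 and miR-30a kept opposite directions. These differences were not tested, and the scaling of edgeR moves the log2 ratios by -0.51 in FCx and 0.11 in HP. The FCx ratios from counts of miR-107 and miR-30a, 0.24 and 0.05, are smaller than that shift. Their direction in FCx therefore depends on the scaling.

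Single runs stood apart from the other 3 runs of the same index for 8 of 210 combinations of a named miRNA and an index. Chance alone gives about 5%, so the number does not exceed what chance would give. With index 3 these were 1743 CPM for miR-222, 1369 CPM for miR-487b, 434 CPM for miR-335-5p, 288 CPM for miR-92a, 189.9 CPM for miR-409-5p and 80.0 CPM for miR-337-5p. With index 7 they were 383 CPM for miR-29b and 137 CPM for miR-665. The 4 runs are 2 runs of an FCx library and 2 runs of an HP library, so the 5% is only a rough guide. Each value is that of 1 run.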

How the results depend on the processing

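The number of miRNAs called, 183, moved by more than 1.5 times with at least 10 counts asked for in each library (84), with the individual lanes alone (117) and without the region block (81). The filter of 10 counts also left fewer miRNAs to test. A fit over all 6 libraries called 166 miRNAs and 76 members. With 1 library left out of it 60 to 144 miRNAs were called, the lowest without HP index 3. Among members the 79 calls became 41 without the region block, 45 of 108 when 100 CPM was asked in each library and 153 of 257 for a mean of 10 CPM. Leaving out 1 library of the 6 gave 39 to 91 members, with 39 without HP index 3 and 52 without FCx index 3. In these fits an index with 1 library left is assumed to vary like the others. DESeq2 called 133 miRNAs and 76 members, library totals 147 and 57, and the pooled lanes alone 136 and 64. Spearman's rho between the indexes over the members was 0.628 in FCx and 0.735 in HP, and 0.834 and 0.895 over miRNAs with at least 2 counts.

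Of 1781 values recomputed for 105 named miRNAs, 1488 kept direction and call, 135 lost and 70 gained the call, 85 moved, and 3 reversed, namely let-7b* with the individual lanes alone (-0.55) and, in FCx alone, miR-323-3p (0.037) and miR-668 (0.017). MiR-9* lost its call without HP index 3, and miR-429, miR-200a, miR-124 and miR-9 without the region block. No paired analysis was possible because the indexes share no replicate number in the labels, beyond the pairing of the libraries of a region, which the test already has as its block.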
